A study of Mus musculus with 12 samples.

Results

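The genes described here encode the glycosyltransferases that build and cap mucin-type and related glycans. They were taken from a count table of bulk mouse pylorus by symbol: the families Galnt, B3gnt, B3galt, B4galt, B4galnt, C1galt, Gcnt, St3gal, St6gal (with St6galnac), St8sia and Fut. Of 23420 genes in the table, 81 symbols matched, and 74 had at least 10 counts in at least 3 of 12 libraries. These 74 are called members below. The other 7 were B3galt2, which reached 10 counts in 2 libraries and stood just outside the minimum, and B3gnt4, Fut4-ps1, Fut7, Galntl5, Gcnt7 and St6galnac1. Just inside it stood Galnt14 and St6galnac5, which each reached 10 counts in 3 libraries, all of them from transgenic mice of 80 days. Those 2 members could therefore hardly fail to be higher in that group, and counts that they enter are given with and without them. St8sia5 reached 10 counts in 7 libraries, among them every transgenic one, so it passed the minimum through transgenic libraries of both ages. Counts were not made without it.

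The study compared the pylorus, the outlet region of the stomach, of CEA424-SV40 T Ag transgenic mice with that of wild-type mice, all of strain C57BL/6. In the transgene a carcinoembryonic antigen promoter drives the SV40 large T antigen, a viral oncoprotein, and the series' title describes a spontaneous gastric cancer model. The 4 groups were transgenic mice at 80 days of age (D80), wild-type mice at D80, transgenic mice at 60 days (D60) and wild-type mice at D60, with 3 RNA-seq libraries each. The labels do not say whether libraries came from separate animals, so p-values measure the spread between these libraries. The transgene's own transcript was not analysed here.

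Mucin-type O-glycosylation starts when a polypeptide GalNAc-transferase attaches N-acetylgalactosamine to serine or threonine. C1galt1 or B3gnt6 then makes a core, Gcnt enzymes branch it, B3gnt, B3galt and B4galt enzymes lengthen the chain, and fucosyl- and sialyltransferases cap it. In the stomach this machinery decorates the gel-forming mucins of surface and gland cells. The α2,8-sialyltransferases act mainly on gangliosides and on polysialylated proteins and are best known from the nervous system. By role, assigned largely by gene family, the members were 17 initiating enzymes, 7 core and branching genes, 24 chain-extension enzymes, 7 fucosyltransferases, 13 α2,3- or α2,6-sialyltransferases and 6 α2,8-sialyltransferases. The roles are broad. The initiating enzymes include Galnt4 and Galnt7, which act after a first GalNAc, and the chain-extension enzymes include some that act on gangliosides.

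Libraries held 20121600 to 27633715 counts. The levels below are counts scaled to a library total of 1e+06 (CPM) on library sizes scaled by trimmed mean of M-values, and differences are log2 fold changes ± SE from edgeR's quasi-likelihood test with Benjamini-Hochberg adjustment over all 15369 genes tested. A gene is called at an adjusted p under 0.05. Whether the values of groups overlap is given as a description, since many of the genes shown were chosen by their calls. The share of all genes without overlap was not computed. Markers of other cells moved with genotype. The summed level of 13 neuroendocrine markers was 29770 to 43980 CPM in transgenic D80 and 794 to 842.8 CPM in wild-type D80 libraries, and 5178 to 7090 CPM in transgenic D60 and 529.3 to 689.7 CPM in wild-type D60 libraries. All 13 were called higher at both ages. The 10 surface mucous pit cell markers summed to 37100 to 53120 CPM in transgenic D80 and 108700 to 160400 CPM in wild-type D80 libraries, with 8 called lower, and all 11 smooth muscle markers were called lower. All 7 macrophage markers tested were called higher at D80. Of the 9 enteric neuron markers tested, 5 were called higher and 4 lower at D80, with sums over all 10 listed of 200.5 to 325.3 CPM in transgenic D80 and 69.56 to 73.5 CPM in wild-type D80 libraries. Of all markers listed, Amy2a5, an acinar gene, was at 0 in every library. Their part in the results below was not tested, and in bulk tissue fewer cells of a type and less RNA per cell cannot be told apart. By Xist and Y-linked transcripts, the transgenic D60 and wild-type D80 libraries were female, the wild-type D60 libraries male, and transgenic D80 replicate 1 male with the other 2 female. At D60, genotype and sex therefore cannot be told apart directly. Only transgenic D80 held both sexes, so a sex covariate rests on its replicate 1 against its replicates 2 and 3. Wild-type D80 replicate 3 stood apart by duodenal markers (11630 CPM) and transgenic D80 replicate 1 by pancreatic acinar markers (5182 CPM). Wild-type D80 replicate 1 stood apart by gland mucous markers, at 71650 CPM beside 31500 and 20340 CPM in the other wild-type D80 libraries. It was also high in parietal (191 CPM) and chief cell markers (212.2 CPM) and low in goblet cell markers (972.7 CPM, beside 4658 and 4681 CPM).

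At D80, 18 of the 74 members were higher and 14 lower in transgenic pylorus, relative to wild-type, with 42 not called. Over all genes tested, 19.4% were called higher and 22% lower, so the members' shares were near the background. The median log2 fold change was 0.00 over the members (0.0045) and -0.07 over all genes. Without Galnt14 and St6galnac5 the counts were 16 higher and 14 lower of 72, with a median of -0.05. Without wild-type D80 replicate 1 the counts of the 74 were 22 higher and 13 lower, without wild-type D80 replicate 3 they were 17 and 15, and without transgenic D80 replicate 1 they were 18 and 14. Under upper-quartile scaling the split was 25 higher and 9 lower, and with no composition factor (library totals alone), which shifts the median of all genes to 0.34, it was 29 higher and 5 lower. The higher members came from every role, with sizes up to 8.33 on the log2 scale, whereas none of the lower members fell by more than 1.44.

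**Figure D1:**
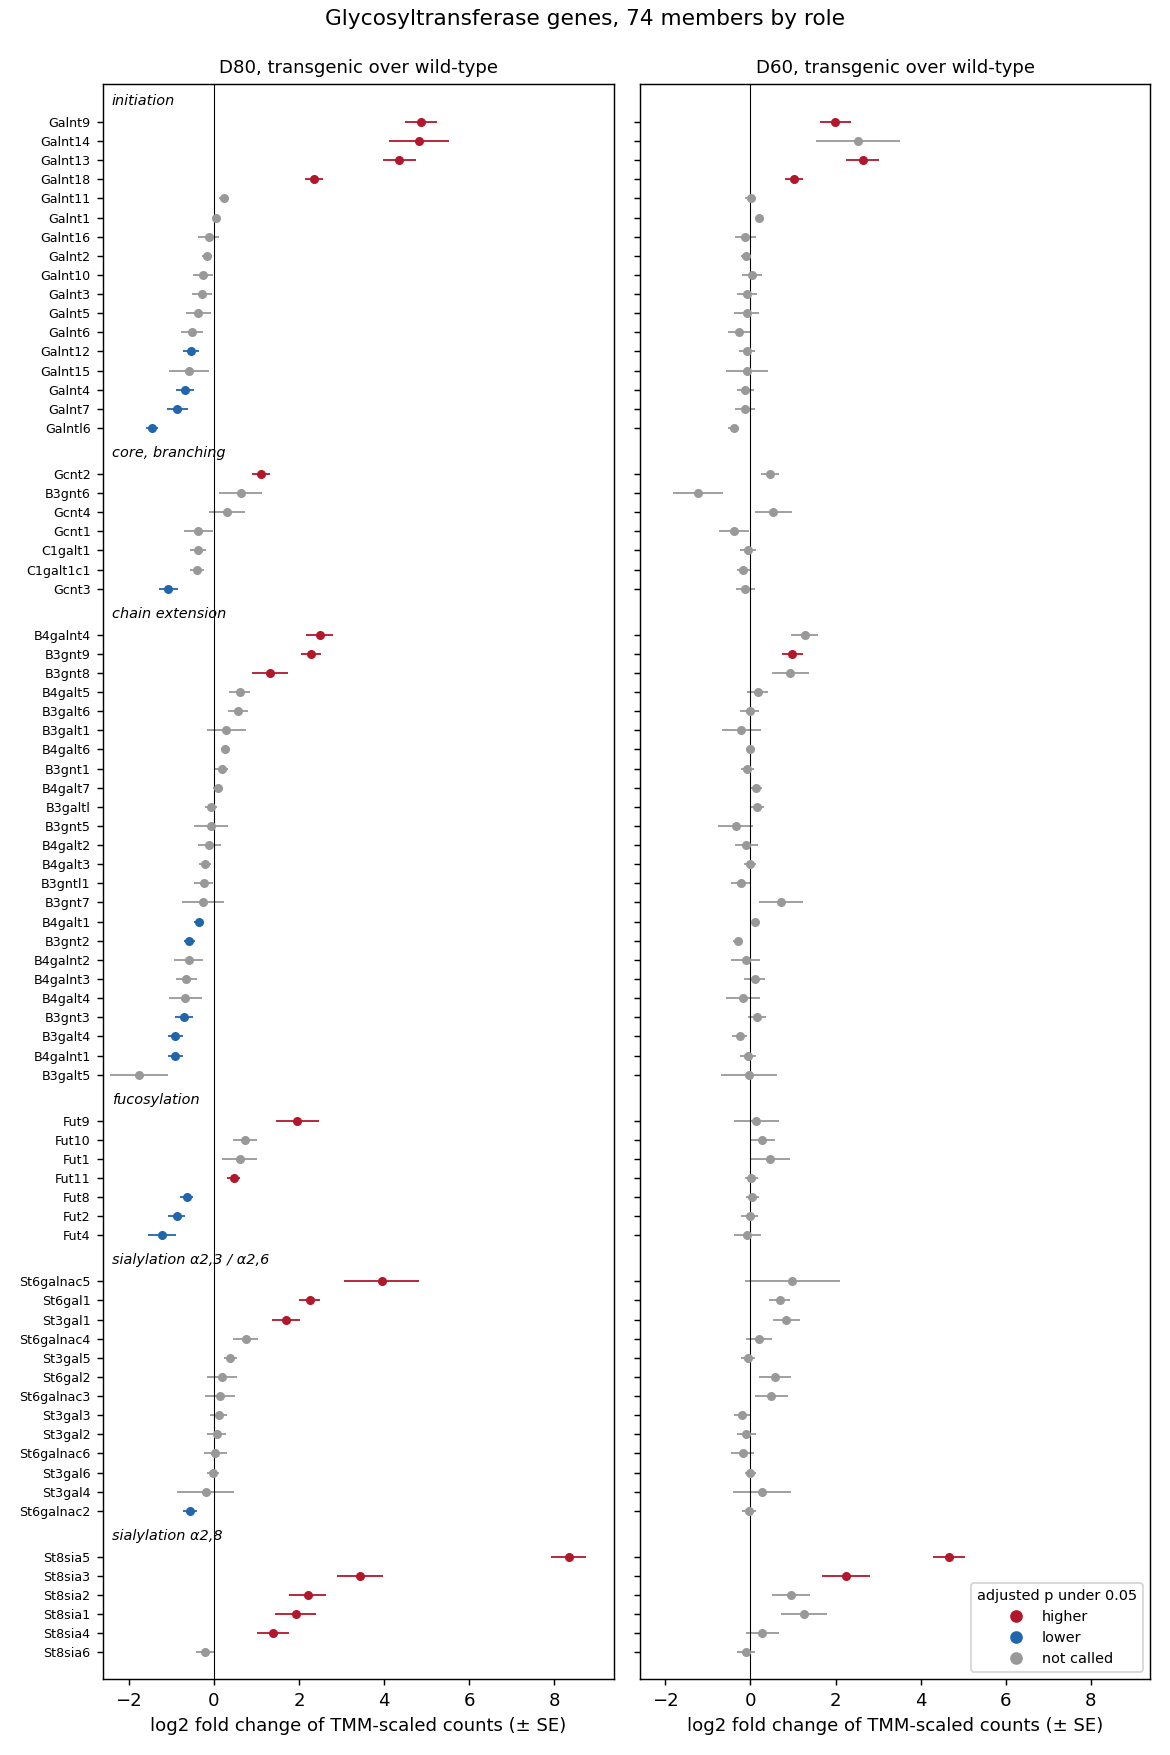
Log2 fold change ± SE, transgenic over wild-type, of each of the 74 members at D80 (left) and D60 (right), grouped by role (n = 3 libraries per group). Red and blue mark members called higher and lower. At D80 St8sia5 (8.33) lies farthest to the right, ahead of Galnt9 (4.87) and Galnt14 (4.82), and 6 members are red at D60.

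Among the 17 initiating enzymes, 4 were higher at D80 (Galnt9, Galnt14, Galnt13 and Galnt18) and 4 were lower (Galntl6, Galnt7, Galnt4 and Galnt12), with a median log2 fold change of -0.25, which turned to 0.14 with no composition factor (6 higher and 1 lower). Without Galnt14, 3 of 16 were higher and 4 lower. Under upper-quartile scaling 5 of the 17 were higher and 2 lower. Galnt9, a GalNAc-transferase known mainly from brain, stood at 11.9, 21.3 and 13.2 CPM in transgenic D80, against 0.731, 0.353 and 0.477 CPM in wild-type D80 libraries. At D60 it had 1.75, 3.38 and 2.47 CPM in transgenic and 0.556, 0.565 and 0.761 CPM in wild-type libraries. The groups did not overlap at either age. Its log2 fold change was 4.87 ± 0.37 at D80 (adjusted p = 2.8e-06) and 1.996 ± 0.36 at D60 (adjusted p = 0.0072). Galnt13, another neuronal GalNAc-transferase, which makes the Tn antigen, measured 7.36, 11.3 and 9.66 CPM in transgenic D80, against 0.528, 0.529 and 0.303 CPM in wild-type D80 libraries. The difference was 4.36 ± 0.38 on the log2 scale (adjusted p = 7.1e-06).

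Galnt14, one of the members at the minimum only in transgenic D80 libraries, had 1.29, 2.69 and 2.45 CPM there, against 0.122, 0.0882 and 0 CPM in wild-type D80 libraries, a log2 difference of 4.82 ± 0.70 (adjusted p = 0.00032). Galnt18, of the same subfamily as Galnt9, was at 28.9, 50 and 37.2 CPM in transgenic D80 and 7.56, 8.43 and 6.85 CPM in wild-type D80 libraries, higher by 2.35 ± 0.21 (log2, adjusted p = 8.5e-06). All 3 transgenic values exceeded all 3 wild-type values for both genes. On GRCm38, Galnt9 lies on chromosome 5 at 110544355 to 110621380, Galnt13 on chromosome 2 at 54436317 to 55118309, Galnt14 on chromosome 17 at 73493228 to 73710453 and Galnt18 on chromosome 7 at 111471661 to 111779977. The 4 genes are thus on 4 chromosomes.

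Galntl6, a GalNAc-transferase-like gene on chromosome 8 at 57774052 to 58912640, fell to 7.24, 5.86 and 7.4 CPM in transgenic D80, against 19, 19.4 and 17.4 CPM in wild-type D80 libraries (log2 fold change -1.44 ± 0.14, adjusted p = 1.6e-05). Its groups did not overlap. Galnt7, which prefers substrates that already carry a GalNAc, measured 358, 216 and 280 CPM in transgenic D80 and 656, 551 and 344 CPM in wild-type D80 libraries. These groups overlapped, as wild-type D80 replicate 3 lay below transgenic D80 replicate 1, and the difference was -0.86 ± 0.24 (adjusted p = 0.015). The adjusted p became 0.0667 without transgenic D80 replicate 2, 0.0586 without replicate 3, 0.067 with only the D80 groups in the fit and 0.165 with no composition factor (-0.47). Galnt4, also a follow-up enzyme, averaged 246 ± 51 CPM in transgenic D80 and 394 ± 100 CPM in wild-type D80 libraries (SD, n = 3 each; -0.68 ± 0.21, adjusted p = 0.022 by edgeR). Its 2 groups overlapped, and the call was lost without wild-type D80 replicate 1 or 2 (adjusted p = 0.0641 for each) and without transgenic D80 replicate 2 (0.0922) or 3 (0.0977). It was also lost under upper-quartile scaling (0.0721), with only the D80 groups in the fit (0.089) and with no composition factor (-0.29, 0.322). Without both wild-type D80 replicate 3 and transgenic D80 replicate 1 the difference was -1.06 (0.00154). Galnt4 also shares 420 bp of exon on the same strand with Poc1b. Galnt12, a mucin-directed GalNAc-transferase of the digestive tract, averaged 110 ± 17 CPM in transgenic D80 and 160 ± 48 CPM in wild-type D80 libraries, with a difference of -0.54 ± 0.19 (edgeR adjusted p = 0.043). It lost its call without any 1 of 9 libraries, with the adjusted p reaching 0.157 without transgenic D80 replicate 2, and kept it only without wild-type D80 replicate 3, transgenic D60 replicate 1 or transgenic D80 replicate 1. Without wild-type D80 replicate 1 the difference was -0.31 (adjusted p = 0.155). Its adjusted p was 0.0575 with relative log expression (RLE) factors, 0.16 under upper-quartile scaling, 0.618 with no composition factor (-0.15) and 0.148 with only the D80 groups in the fit. Without both wild-type D80 replicate 3 and transgenic D80 replicate 1 the difference was -0.86 (adjusted p = 0.00477). Galnt6 had 414, 326 and 369 CPM in transgenic D80 and 780, 447 and 352 CPM in wild-type D80 libraries and was not called (-0.51 ± 0.25, adjusted p = 0.13). Without wild-type D80 replicate 3, the library with duodenal markers, it was called at -0.74 (adjusted p = 0.0275). The 780 CPM came from wild-type D80 replicate 1, which stood apart by gland mucous markers. The other wild-type values, 447 and 352 CPM, lay above and within the range of the transgenic values.

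To show the sequences at the start sites of members that differed, 4 promoter windows are given from RefSeq on GRCm38.p6, each 250 bases before to 50 bases after the start, 5′ to 3′ on the gene's strand. They belong to the 2 called higher and the 2 called lower members with the largest log2 fold changes at D80 among those that have 1 window and lie on a chromosome whose sequence is printed. Capitals mark any match, on either strand, to the GC box GGGCGG, the E-box CAGCTG, the TATA box TATAAA or the GATA motif AGATAA.
Galnt14 (chr17:73710402-73710701, minus strand): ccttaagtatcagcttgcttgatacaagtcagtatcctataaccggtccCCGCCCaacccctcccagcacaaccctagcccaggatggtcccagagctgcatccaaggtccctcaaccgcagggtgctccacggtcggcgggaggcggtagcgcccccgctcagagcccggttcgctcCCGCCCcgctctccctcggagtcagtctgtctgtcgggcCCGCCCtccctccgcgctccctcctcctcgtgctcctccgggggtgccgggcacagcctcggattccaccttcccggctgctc
Galnt13 (chr2:54436137-54436436, plus strand): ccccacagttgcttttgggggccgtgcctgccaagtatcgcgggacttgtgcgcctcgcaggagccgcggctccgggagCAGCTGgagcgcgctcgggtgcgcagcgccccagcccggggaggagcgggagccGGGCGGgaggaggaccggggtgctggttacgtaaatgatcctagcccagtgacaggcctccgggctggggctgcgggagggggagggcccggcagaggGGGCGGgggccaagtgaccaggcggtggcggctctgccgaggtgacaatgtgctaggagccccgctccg
Galntl6 (chr8:58911578-58911877, minus strand): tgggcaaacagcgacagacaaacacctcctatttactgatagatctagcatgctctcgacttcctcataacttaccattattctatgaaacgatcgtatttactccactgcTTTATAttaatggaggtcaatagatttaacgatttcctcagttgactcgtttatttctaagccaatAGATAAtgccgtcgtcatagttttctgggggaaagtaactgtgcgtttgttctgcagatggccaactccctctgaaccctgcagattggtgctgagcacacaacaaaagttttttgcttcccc
Fut4 (chr9:14752073-14752372, minus strand): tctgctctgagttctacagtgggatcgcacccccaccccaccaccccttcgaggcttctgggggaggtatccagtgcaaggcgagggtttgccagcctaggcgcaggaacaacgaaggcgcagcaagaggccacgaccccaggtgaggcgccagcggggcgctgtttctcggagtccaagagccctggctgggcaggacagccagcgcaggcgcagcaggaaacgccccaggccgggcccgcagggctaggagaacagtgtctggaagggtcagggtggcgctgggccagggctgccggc
Galnt14 held 3 GC box matches and Galnt13 held 2 and 1 E-box. The Galntl6 window, with 41.7% G and C against 73% in that of Galnt13, held 1 TATA box and 1 GATA match, and that of Fut4, with 68% G and C, held none of the 4. A match is a description of letters only. The starts are those of RefSeq. The windows of Galntl6 and Fut4 lie inside the GENCODE genes, whose 5′ ends are at 58912640 and 14752393.

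RefSeq windows were matched for 52 of the 74 members, 71 in all. Median G and C content was 61.7% in the members' windows and 52.7% in all 32851 windows. A GC box stood in 62.5% of 16 windows of members higher at D80 (Galnt14 included), in 63.6% of 11 windows of lower members and in 52.3% of 44 windows of members not called, against 35.7% of all windows. An E-box stood in 5 of the 16 windows of higher members, in 0 of the 11 of lower members and in 15.9% of those not called, against 16.3% of all. Windows of 1 gene share sequence, and no test was made of these shares.

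Of the 7 core and branching genes, 1 was higher and 1 lower at D80, and their median log2 fold change was -0.36 (0.05 with no composition factor). Gcnt3, the mucin-type enzyme that makes core 2 and core 4 branches, lies on chromosome 9 at 70031496 to 70038088. It fell to 493, 304 and 361 CPM in transgenic D80, against 843, 895 and 702 CPM in wild-type D80 libraries (log2 fold change -1.07 ± 0.22, adjusted p = 0.003). The difference was -0.67 with no composition factor (adjusted p = 0.0182). The groups did not overlap. At D60 it averaged 816 ± 160 CPM in transgenic and 889 ± 180 CPM in wild-type libraries (SD, n = 3 each), a difference of -0.12 ± 0.22 (edgeR adjusted p = 0.88). Per kilobase of exon Gcnt3 supplied 61.7% of the summed level of the 7 genes in transgenic D80 and 74.6% in wild-type D80 libraries, and 75.2% in transgenic D60 and 75.5% in wild-type D60 libraries. That sum was 124.7 to 166 CPM per kb in transgenic D80 and 221.4 to 283.7 CPM per kb in wild-type D80 libraries, so the groups did not overlap.

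Gcnt2, which makes the I-branch of polylactosamine, measured 29.6, 39.6 and 41.3 CPM in transgenic D80 and 13, 15.9 and 22.5 CPM in wild-type D80 libraries and was higher by 1.10 ± 0.21 (log2, adjusted p = 0.0019). C1galt1, the core 1 synthase, was at 88.5, 83.4 and 82.6 CPM in transgenic D80 and 93.4, 138 and 96 CPM in wild-type D80 libraries. It was not called (-0.36 ± 0.18, adjusted p = 0.14), though the groups did not overlap. C1galt1c1, the chaperone that C1galt1 needs, averaged 42 ± 3.6 CPM in transgenic D80 and 55 ± 8 CPM in wild-type D80 libraries (SD, n = 3 each), a difference of -0.39 ± 0.16 (edgeR adjusted p = 0.069). Its adjusted p was 0.0498 without wild-type D80 replicate 3 and 0.0335 without wild-type D60 replicate 2. Gcnt1, the core 2 enzyme best known from leukocytes, averaged 14 ± 2.4 CPM in transgenic D80 and 18 ± 10 CPM in wild-type D80 libraries, and B3gnt6, the core 3 synthase, 0.683 ± 0.32 CPM in transgenic D80 and 0.441 ± 0.091 CPM in wild-type D80 libraries, with neither called at D80 (edgeR adjusted p = 0.43 and 0.34).

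Chain-extension enzymes gave 3 higher and 5 lower members of 24 at D80 (median log2 fold change -0.16). Under upper-quartile scaling the split was 6 higher and 3 lower, and with no composition factor it was 8 and 2, with a median of 0.26. B4galnt4, which makes LacdiNAc, was at 10.8, 17.6 and 10.6 CPM in transgenic D80, against 1.91, 2.38 and 2.64 CPM in wild-type D80 libraries (2.49 ± 0.31, adjusted p = 0.00011). B3gnt9, a β1,3-GlcNAc-transferase family member, had 20.3, 35.5 and 26.9 CPM in transgenic D80 and 6.26, 4.63 and 6.11 CPM in wild-type D80 libraries (2.28 ± 0.24, adjusted p = 3.2e-05). Both genes' groups stood clear of each other. B3gnt8, which extends polylactosamine together with B3gnt2, measured 3.36, 4.87 and 4.21 CPM in transgenic D80 and 2.11, 1.24 and 1.6 CPM in wild-type D80 libraries (1.32 ± 0.42, adjusted p = 0.026). Its call was lost without wild-type D80 replicate 2 (adjusted p = 0.0898) or 3 (0.0614) and without transgenic D80 replicate 2 (0.0831) or 3 (0.0598), and without both wild-type D80 replicate 3 and transgenic D80 replicate 1 (0.0696). B3gnt9 shares 416 bp of exon with D230025D16Rik and B3gnt8 1171 bp with Bckdha, on the other strand in each case.

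The 2 members of that role called lower with the largest falls both act on gangliosides. B4galnt1, which makes the GM2 and GD2 gangliosides, was at 242, 192 and 174 CPM in transgenic D80 and 370, 372 and 396 CPM in wild-type D80 libraries (-0.91 ± 0.18, adjusted p = 0.0023). It lies on chromosome 10 at 127165225 to 127172330 and shares 715 bp of exon with Slc26a10 on the other strand. B3galt4, the GM1 synthase, was at 9.52, 8.96 and 8.8 CPM in transgenic D80 and 15.1, 18.1 and 17.8 CPM in wild-type D80 libraries (-0.90 ± 0.18, adjusted p = 0.0026). For both genes every transgenic value lay below every wild-type value. The differences became -0.49 for B4galnt1 (adjusted p = 0.0136) and -0.48 for B3galt4 (adjusted p = 0.0311) with no composition factor. B3gnt3, the core 1 extension enzyme, had 219, 174 and 160 CPM in transgenic D80 and 212, 323 and 365 CPM in wild-type D80 libraries, with overlapping groups (-0.70 ± 0.22, adjusted p = 0.024). Without wild-type D80 replicate 2 or 3, or transgenic D80 replicate 2 or 3, its adjusted p lay between 0.0699 and 0.116. It was 0.0504 under upper-quartile scaling, 0.205 with no composition factor (-0.27), 0.0717 with only the D80 groups in the fit and 0.0564 without both wild-type D80 replicate 3 and transgenic D80 replicate 1. B3gnt2, the main polylactosamine enzyme, averaged 29.6 ± 1 CPM in transgenic D80 and 44.1 ± 5.3 CPM in wild-type D80 libraries (SD, n = 3 each; -0.57 ± 0.12, edgeR adjusted p = 0.0038), and shares 2449 bp of exon on the same strand with Gm28048. B3gnt2 was not called with no composition factor (-0.15, adjusted p = 0.405). B4galt1, a galactosyltransferase of most glycan classes, was the fifth (-0.34 ± 0.12, adjusted p = 0.036). Its difference turned to 0.08 with no composition factor (adjusted p = 0.551) and was -0.18 under upper-quartile scaling (adjusted p = 0.195). Its call was also lost with RLE factors (adjusted p = 0.0682), with only the D80 groups in the fit (0.105), with sex type as a covariate (0.0639), without both wild-type D80 replicate 3 and transgenic D80 replicate 1 (0.113) and without any 1 of 8 libraries (0.0501 to 0.141). These were wild-type D60 replicates 1 and 3, wild-type D80 replicates 2 and 3, transgenic D60 replicate 2 and all 3 transgenic D80 replicates. B4galnt2, which makes the Sd(a) antigen, was at 265, 172 and 180 CPM in transgenic D80 and 292, 279 and 357 CPM in wild-type D80 libraries and was not called (-0.59 ± 0.34, adjusted p = 0.19). B3galt5, a chain-extension enzyme of the digestive tract, had 64.3, 45.5 and 39.2 CPM in transgenic D80 against 19.4, 244 and 242 CPM in wild-type D80 libraries, so that a single wild-type library lay below all the transgenic ones (-1.76 ± 0.68, adjusted p = 0.056). Without that library, wild-type D80 replicate 1, it was called at -2.29 (adjusted p = 0.000364). B3galt5 was singled out after its values were seen.

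Of the 7 fucosyltransferases, 2 were higher and 3 lower at D80, and their median log2 fold change was 0.47. With no composition factor 3 were higher and 1 lower. Fut2, the secretor enzyme that adds α1,2-fucose to gastric mucin, lies on chromosome 7 at 45648591 to 45666394. It was at 159, 107 and 140 CPM in transgenic D80, against 273, 271 and 201 CPM in wild-type D80 libraries (-0.88 ± 0.20, adjusted p = 0.0055). Fut2 was not called with no composition factor (-0.47, adjusted p = 0.0704). Fut4 and Fut9 both make the Lewis x structure and moved in opposite directions. Fut4 was at 26.3, 24.8 and 18.8 CPM in transgenic D80 and 34.4, 55 and 73.6 CPM in wild-type D80 libraries (-1.22 ± 0.32, adjusted p = 0.011, and 0.0559 without transgenic D80 replicate 3). Without both wild-type D80 replicate 3 and transgenic D80 replicate 1 the adjusted p of Fut4 was 0.0548, and with no composition factor the difference was -0.78 (adjusted p = 0.0322). Fut9 was at 2.13, 2.21 and 2.17 CPM in transgenic D80 and 0.731, 0.706 and 0.217 CPM in wild-type D80 libraries (1.96 ± 0.50, adjusted p = 0.0086). None of these 3 pairs of groups overlapped. Fut8, which adds core fucose to N-glycans, averaged 102 ± 9.5 CPM in transgenic D80 and 159 ± 24 CPM in wild-type D80 libraries (SD, n = 3 each; -0.63 ± 0.15, edgeR adjusted p = 0.0072), and with no composition factor it was not called (-0.22, adjusted p = 0.201). Fut11 averaged 16.4 ± 1.2 CPM in transgenic D80 and 11.8 ± 2.3 CPM in wild-type D80 libraries (0.47 ± 0.15, edgeR adjusted p = 0.026), and its adjusted p was 0.0722 and 0.084 without wild-type D80 replicates 2 and 3 and 0.0882 without transgenic D80 replicate 1. It was 0.0629 with only the D80 groups in the fit, 0.0812 with sex type as a covariate (0.42) and 0.198 without both wild-type D80 replicate 3 and transgenic D80 replicate 1 (0.29). The Fut11 difference was 0.87 with no composition factor (adjusted p = 0.00451). Summed per kilobase, the 7 genes stood at 43.7 to 55.92 CPM per kb in transgenic D80 and 76.57 to 90.76 CPM per kb in wild-type D80 libraries, and Fut2 made up 50.1% and 54.9% of that sum in the same groups.

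**Figure D2:**
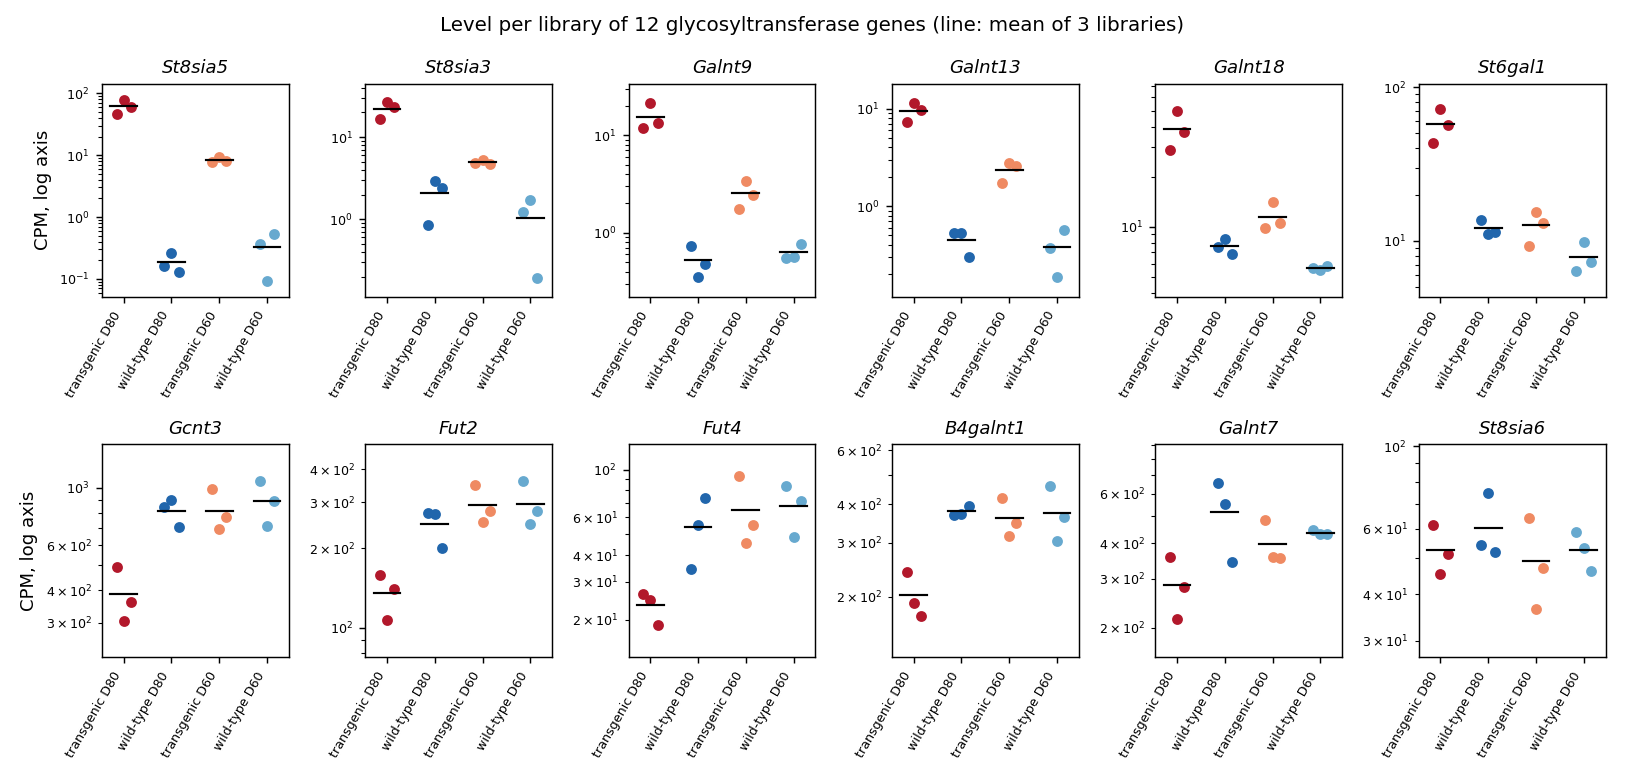
CPM on a log axis of 12 members in each of the 12 libraries, with the groups from left to right transgenic D80, wild-type D80, transgenic D60 and wild-type D60 (points are libraries, lines are means of 3). St8sia5 ranges from 0.0942 CPM in a wild-type D60 library to 78.6 CPM in a transgenic D80 library, whereas the St8sia6 groups overlap.

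Among the 13 α2,3- and α2,6-sialyltransferases, 3 were higher and 1 lower at D80 (median log2 fold change 0.14), and without St6galnac5, 2 of 12 were higher and 1 lower. Of the 13, 5 were higher and 0 lower under upper-quartile scaling and 6 and 0 with no composition factor. St6gal1, which adds α2,6-sialic acid to N-glycans, lies on chromosome 16 at 23224740 to 23360350. It stood at 43.6, 71.9 and 56.6 CPM in transgenic D80, against 13.7, 11 and 11.5 CPM in wild-type D80 libraries (2.25 ± 0.24, adjusted p = 3.1e-05). St3gal1, which sialylates the core 1 O-glycan, was at 26.5, 38.4 and 41.1 CPM in transgenic D80 and 9.38, 9.53 and 13.8 CPM in wild-type D80 libraries (1.70 ± 0.32, adjusted p = 0.0018). Neither gene's groups overlapped. St6galnac5, a ganglioside sialyltransferase, had 1.29, 1.55 and 1.33 CPM in transgenic D80 and 0.0406, 0.221 and 0 CPM in wild-type D80 libraries (3.94 ± 0.89, adjusted p = 0.0048). It was a member only through its transgenic D80 libraries, so it could hardly fail to be higher there. St6galnac2, which acts on O-glycans, averaged 60 ± 9 CPM in transgenic D80 and 89 ± 21 CPM in wild-type D80 libraries (SD, n = 3 each; -0.57 ± 0.17, edgeR adjusted p = 0.017), and its adjusted p was 0.0514 without wild-type D80 replicate 1, 0.0758 without transgenic D80 replicate 2 and 0.0566 without replicate 3. Without wild-type D80 replicate 1 the difference was -0.37. The adjusted p was 0.0854 under upper-quartile scaling, 0.512 with no composition factor (-0.17) and 0.079 with only the D80 groups in the fit. St6galnac1, the sialyl-Tn synthase, did not reach the count minimum. It averaged 0.0326 CPM in transgenic D80 and 0.0291 CPM in wild-type D80 libraries. Both lay under the level of 3 counts in every library, which was 0.109 to 0.149 CPM on library totals without the scaling factors. St3gal4 was not called (-0.19 ± 0.67, adjusted p = 0.85), with 98.8, 110 and 71.4 CPM in transgenic D80 and 29.9, 52.3 and 236 CPM in wild-type D80 libraries, the last being the library with duodenal markers.

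The α2,8-sialyltransferases showed the highest share of called members, 5 of 6 higher and 0 lower at D80, with a median log2 fold change of 2.06. Over all genes tested, 19.4% were called higher and 22% lower. Among all genes under 2 CPM in wild-type D60 libraries, the range of all 5 called members of this role, 44.4% were called higher. The 6 genes were not tested against other genes. St8sia5, which makes polysialylated gangliosides such as GT3, lies on chromosome 18 at 77185839 to 77258771. It was at 45.8, 78.6 and 59.6 CPM in transgenic D80, against 0.163, 0.265 and 0.13 CPM in wild-type D80 libraries. At D60 it was at 7.77, 9.29 and 8.09 CPM in transgenic and 0.37, 0.0942 and 0.523 CPM in wild-type libraries. The wild-type values at both ages rest on a few counts per library. Its log2 fold change was 8.33 ± 0.41 at D80 (adjusted p = 1.9e-07) and 4.66 ± 0.38 at D60 (adjusted p = 2.8e-05), the largest of the 74 members at each age. St8sia3, an oligosialic acid enzyme of brain, had 16.6, 27 and 23.4 CPM in transgenic D80 and 0.853, 2.91 and 2.43 CPM in wild-type D80 libraries (3.44 ± 0.53, adjusted p = 0.00052).

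St8sia2 and St8sia4, the enzymes that polysialylate the neural cell adhesion molecule, averaged 2.94 ± 0.26 and 5.29 ± 1 CPM in transgenic D80 libraries and 0.633 ± 0.24 and 2.01 ± 0.8 CPM in wild-type D80 libraries (SD, n = 3 each). They were higher by 2.20 ± 0.44 (edgeR adjusted p = 0.0026) and 1.40 ± 0.38 (edgeR adjusted p = 0.013). St8sia1, the GD3 synthase, had 1.38, 2.17 and 2.2 CPM in transgenic D80 and 0.203, 0.706 and 0.607 CPM in wild-type D80 libraries (1.92 ± 0.49, adjusted p = 0.009). St8sia6, which sialylates O-glycans, was the exception at 61.6, 45.3 and 51.3 CPM in transgenic D80 and 54.3, 75.1 and 51.9 CPM in wild-type D80 libraries (-0.20 ± 0.21, adjusted p = 0.48). Set per kilobase of exon, St8sia6 made up 33.3% of the summed level of the 6 genes in transgenic D80 and 94.2% in wild-type D80 libraries, while St8sia5 supplied 52.9% in transgenic D80 and 0.4% in wild-type D80 libraries. At D60, St8sia5 supplied 18% in transgenic and 0.869% in wild-type libraries. The neuroendocrine marker sum moved with these genes, and its part was not tested. The sum over the 6 genes was 18.75 to 23.74 CPM per kb in transgenic D80 and 7.279 to 10.34 CPM per kb in wild-type D80 libraries.

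**Figure D3:**
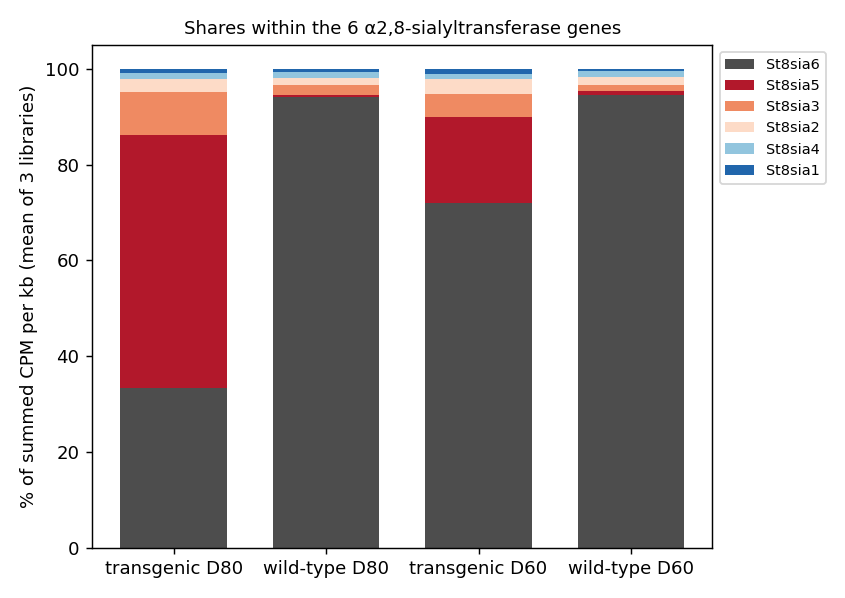
Share of the summed CPM per kb of exon held by each of the 6 α2,8-sialyltransferase genes, as the mean of 3 libraries in each group. St8sia6 holds 33.3% in transgenic D80 and 94.2% in wild-type D80 libraries, and St8sia5 holds 52.9% in transgenic D80 and 0.4% in wild-type D80 libraries.

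Of the 74 members, 6 were higher and 0 lower in transgenic pylorus at D60, against 3.66% of all genes tested called higher and 0.241% called lower. By an unadjusted p under 0.05, 13 members differed, and DESeq2 also called 0 lower. The 6 were St8sia5, Galnt13 (2.63 ± 0.39, adjusted p = 0.0019), St8sia3 (2.25 ± 0.56, adjusted p = 0.046), Galnt9, Galnt18 (1.02 ± 0.21, adjusted p = 0.016) and B3gnt9 (0.99 ± 0.25, adjusted p = 0.048). Galnt13 had 1.71, 2.79 and 2.6 CPM in transgenic D60 and 0.37, 0.188 and 0.571 CPM in wild-type D60 libraries. Galnt18 had 9.76, 14 and 10.6 CPM in transgenic D60 and 5.62, 5.51 and 5.81 CPM in wild-type D60 libraries. St8sia3 had 4.84, 5.25 and 4.68 CPM in transgenic D60 and 1.24, 1.7 and 0.19 CPM in wild-type D60 libraries, and B3gnt9 4.47, 6.75 and 6.51 CPM in transgenic D60 and 2.96, 3.39 and 2.57 CPM in wild-type D60 libraries. Every transgenic value of these 6 genes lay above every wild-type value. This adds no support to the calls, as the 6 were selected by them in these same libraries. St8sia5 was also a member through its transgenic libraries.

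All 6 were also among the 18 higher members at D80. Both comparisons come from 1 fit to all 12 libraries, which share 1 estimate of the spread, so the calls at D60 and D80 are not independent. The 14 members lower at D80 had D60 differences between -0.39 and 0.15, and none was called there. With sex type as a covariate only St8sia5 kept its D60 call (4.07, adjusted p = 0.00646). That covariate is set by transgenic D80 replicate 1, the only male library of the only group with both sexes. It therefore cannot tell genotype and sex apart at D60. The count of 6 became 3 without wild-type D60 replicate 1 and 3 without transgenic D60 replicate 2. B3gnt9 lost its call without any 1 of 8 libraries (adjusted p 0.0518 to 0.202) and kept it without wild-type D80 replicate 1, transgenic D60 replicate 1 and transgenic D80 replicates 1 and 2. Its adjusted p was 0.0501 with no composition factor and 0.0777 with only the D60 groups in the fit. St8sia3 lost its call without any 1 of 9 libraries (adjusted p 0.0534 to 0.13) and kept it without wild-type D60 replicate 2 and wild-type D80 replicates 1 and 3. Its adjusted p was 0.0647 with only the D60 groups in the fit and 0.0621 without both wild-type D80 replicate 3 and transgenic D80 replicate 1. For Galnt18 the 4 libraries that ended the call were wild-type D60 replicates 1, 2 and 3 and transgenic D60 replicate 2, with adjusted p between 0.0577 and 0.0831.

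Within transgenic mice, 22 members were higher and 8 lower at D80 than at D60, against 17.7% and 18% of all genes tested, with a median of 0.17 over the members and 0.02 over all genes. Without Galnt14 and St6galnac5 the counts were 20 higher and 8 lower of 72, with a median of 0.16. This comparison shares its D80 libraries with the genotype comparison above. The fitted differences were 2.87 ± 0.28 for St8sia5 (adjusted p = 0.00013), 2.61 ± 0.32 for Galnt9 (adjusted p = 0.00028), 2.22 ± 0.24 for B3gnt9 and 2.19 ± 0.24 for St6gal1 (adjusted p = 0.00017 for each). Fut2 fell by 1.11 (SE 0.20, adjusted p = 0.0022), Fut4 by 1.47 (SE 0.32, adjusted p = 0.0054), Gcnt3 by 1.08 (SE 0.22, adjusted p = 0.0039) and B3galt4 by 1.07 (SE 0.18, adjusted p = 0.0014). With no composition factor the differences were -0.74 for Fut2, -0.71 for Gcnt3 and -0.70 for B3galt4, each still called. The count of higher members was 14 without transgenic D60 replicate 1 or 3 and 14 without transgenic D80 replicate 3. B3gnt6 was called higher at D80 (1.79 ± 0.55, adjusted p = 0.025) on 0.48, 0.516 and 1.05 CPM in transgenic D80 and 0.244, 0.208 and 0.128 CPM in transgenic D60 libraries, and it lost the call without any replicate of transgenic D60 and without transgenic D80 replicate 3 (adjusted p 0.0532 to 0.108). B4galnt2 was called higher as well (1.01 ± 0.35, adjusted p = 0.04), and its adjusted p lay between 0.0522 and 0.134 without wild-type D60 replicate 3, wild-type D80 replicate 2 or any 1 transgenic library. It was 0.134 with sex type as a covariate and 0.132 without both wild-type D80 replicate 3 and transgenic D80 replicate 1.

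In wild-type mice 0 members were called between D80 and D60 by edgeR, where 0% of all genes tested were called higher and 0% lower. By an unadjusted p under 0.05, 13 members differed, DESeq2 called 2, and edgeR called 4 without wild-type D80 replicate 1, where it called 396 of all genes. Over all genes DESeq2 called 241. B4galnt2 averaged 309 ± 42 CPM in wild-type D80 and 111 ± 54 CPM in wild-type D60 libraries (SD, n = 3 each), with groups that did not overlap (1.48 ± 0.35, edgeR adjusted p = 0.28). The wild-type D80 libraries were female and the wild-type D60 libraries male, so age and sex cannot be told apart here.

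The genotype difference was larger at D80 than at D60 for 4 members and more negative for 1, against 2.77% and 2.23% of all genes tested. These were St8sia5 (3.67 ± 0.63, adjusted p = 0.012), Galnt9 (2.88 ± 0.51, adjusted p = 0.013), St6gal1 (1.56 ± 0.33, adjusted p = 0.024), Galnt18 (1.33 ± 0.29, adjusted p = 0.026) and Galntl6 (-1.05 ± 0.19, adjusted p = 0.014). St6gal1 had 9.27, 15.4 and 13.2 CPM in transgenic D60 and 6.36, 9.8 and 7.33 CPM in wild-type D60 libraries, overlapping groups with a difference of 0.68 ± 0.24 (adjusted p = 0.18). Gcnt3 (-0.95 ± 0.31, adjusted p = 0.096) and Fut2 (-0.86 ± 0.29, adjusted p = 0.1) were not called in this test. The number of calls was 13 without wild-type D80 replicate 1, 8 without transgenic D80 replicate 1, 3 without wild-type D60 replicate 2, wild-type D80 replicate 3 or transgenic D80 replicate 2 or 3, and 2 without wild-type or transgenic D60 replicate 3. Both Galnt18 and St6gal1 lost the call without wild-type D60 replicate 2 or 3, wild-type D80 replicate 3, transgenic D60 replicate 3 or transgenic D80 replicate 2 or 3, Galnt18 also without transgenic D60 replicate 1 and St6gal1 also without wild-type D80 replicate 2. St8sia5 lost it without wild-type D60 replicate 3 and Galntl6 without transgenic D60 replicate 3. Galntl6 had an adjusted p of 0.0857 with no composition factor. With sex type as a covariate only St8sia5 was called (4.44, adjusted p = 0.0431). Set by transgenic D80 replicate 1 alone, that covariate cannot tell sex apart from genotype and age here.

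The members higher and lower at D80 were set against their level in wild-type D60 libraries. These libraries are in neither D80 group but enter the same fit, so the level and the calls are not fully independent. Of 17 members under 2 CPM there, 12 were higher and 0 lower at D80, beside 44.4% higher and 4.94% lower of all genes in that range. Without Galnt14 and St6galnac5, which were members only through transgenic D80 libraries, 10 of 15 were higher. St8sia5, a member through transgenic libraries of both ages, is among these 10. A gene low in wild-type libraries passes a filter on low counts through the groups where it is higher, so these shares are a description. Of 22 members from 2 to 20 CPM, 6 were higher and 0 lower, beside 23.7% and 9.39% of all genes. Of 35 members at 20 CPM and over, 0 were higher and 14 lower, beside 5.77% and 37.9% of all genes. The highest such level of a member higher at D80 was 12 CPM, and the lowest of a member lower at D80 was 22 CPM. Genes in general followed the same order, and no test of the members against other genes was made.

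**Figure D4:**
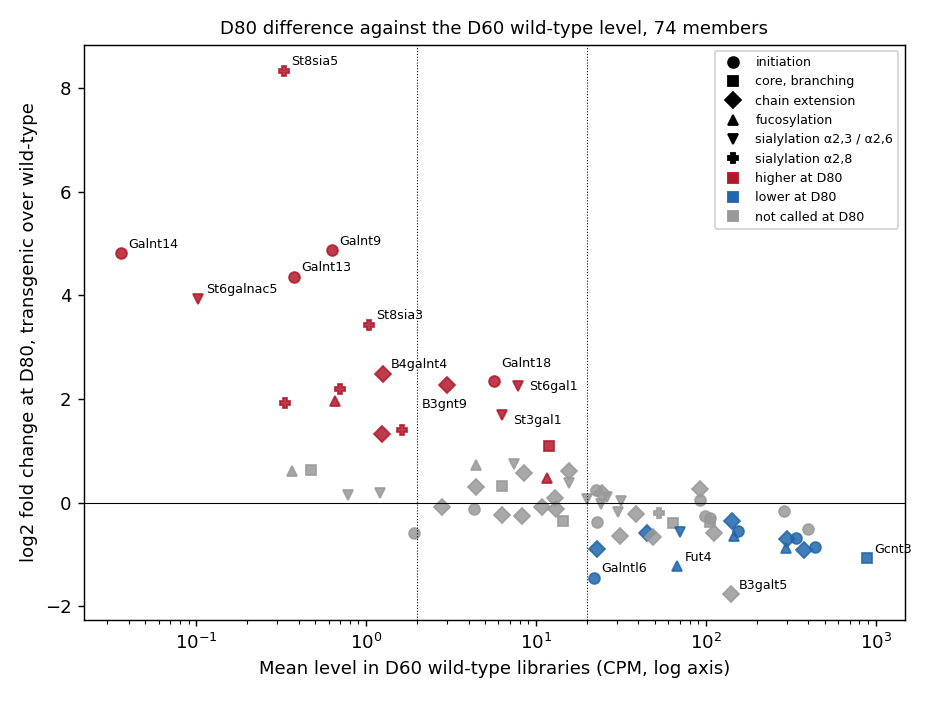
Log2 fold change at D80, transgenic over wild-type, against the mean level in the 3 wild-type D60 libraries (CPM, log axis) for the 74 members, with the symbol giving the role and the colour the call. Dotted lines mark 2 and 20 CPM; all 18 higher members, Galnt14 and St6galnac5 included, lie below 20 CPM and all 14 lower members above it.

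Genes that supply or surround these enzymes were described from fixed lists. Beside each list count below, 19.4% of all genes tested were called higher at D80 and 22% lower. Of 24 tested genes of sugar nucleotide synthesis and transport, 0 were higher and 12 lower at D80 (median log2 fold change -0.52). Of all genes at 20 CPM and over in wild-type D60 libraries, the range of Slc35a1, Tsta3 and Ugp2, 5.77% were higher and 37.9% lower. The list was not tested against other genes. Its count lower was 7 under upper-quartile scaling and 0 with no composition factor, where the median was -0.11. Slc35a1, the CMP-sialic acid transporter on which all sialyltransferases depend, was at 70.42, 58.97 and 67.96 CPM in transgenic D80 and 130, 119.4 and 90.16 CPM in wild-type D80 libraries (-0.78 ± 0.15, adjusted p = 0.0016). Tsta3, which completes GDP-fucose synthesis, and Ugp2, which makes UDP-glucose, fell by 0.69 (SE 0.13, adjusted p = 0.0017) and 0.72 (SE 0.16, adjusted p = 0.0039). With no composition factor none of the 3 was called (Slc35a1 -0.38, Tsta3 -0.28 and Ugp2 -0.29, adjusted p 0.081 to 0.0863). None of the 3 pairs of groups overlapped.

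Of 17 tested mucins and secreted partners, 2 were higher (Muc5b and Clca1) and 4 lower at D80. Muc5ac, the gel-forming mucin of surface cells, was at 340.6, 262.8 and 244.4 CPM in transgenic D80, against 2622, 8477 and 9132 CPM in wild-type D80 libraries (-4.58 ± 0.49, adjusted p = 3.5e-05). Muc6, the gland mucin, was not called (-0.31 ± 0.45, adjusted p = 0.61). Muc5b, chosen after its values were seen, was at 11.11, 23.33 and 29.49 CPM in transgenic D80 and 8.207, 4.676 and 2.34 CPM in wild-type D80 libraries (2.07 ± 0.44, adjusted p = 0.0033). The trefoil peptide Tff1 and the gastrokine Gkn1 fell by 2.18 (SE 0.43, adjusted p = 0.0023) and 2.15 (SE 0.45, adjusted p = 0.003). These 3 lower genes are also pit cell markers of the list above.

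Of 19 tested capping and sulfation enzymes outside the families, 5 were higher and 2 lower at D80 (median log2 fold change -0.05, and 0.10 under upper-quartile scaling). B3gat1, which makes the HNK-1 glycan of neural cells, had 18.89, 31.07 and 23.23 CPM in transgenic D80 and 3.782, 7.124 and 5.575 CPM in transgenic D60 libraries, and 0 counts in all 6 wild-type libraries. Gal3st3, a galactose sulfotransferase, had 2.282, 3.612 and 3.624 CPM in transgenic D80 libraries and 2 counts in all over the 3 wild-type D80 libraries. B3galnt1, the globoside synthase, was at 21.2, 36.67 and 31.53 CPM in transgenic D80 and 7.476, 6.44 and 6.932 CPM in wild-type D80 libraries (2.10 ± 0.23, adjusted p = 4.4e-05). Of the 8 ganglioside and polysialic acid carrier genes, 5 were higher and 0 lower. Ncam1, the main carrier of polysialic acid, was at 41.11, 53.74 and 41.19 CPM in transgenic D80 and 12.64, 10.15 and 9.315 CPM in wild-type D80 libraries (2.08 ± 0.20, adjusted p = 1.7e-05). Cadm1, another carrier, was higher by 1.80 ± 0.25 (adjusted p = 0.00026), and Gm2a, the GM2 activator, by 1.05 ± 0.20 (adjusted p = 0.002).

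The 12 N-glycan branching genes gave 3 higher and 5 lower at D80 (median log2 fold change -0.23), 3 and 2 under upper-quartile scaling and 5 and 1 with no composition factor (median 0.19). Mgat5b, a brain branching enzyme, averaged 3.593 ± 0.4768 CPM in transgenic D80 and 0.2205 ± 0.2352 CPM in wild-type D80 libraries (SD, n = 3 each; 3.97 ± 0.60, edgeR adjusted p = 0.00043). Mgat4b and Mgat3 were lower by -0.48 ± 0.11 (adjusted p = 0.006) and -0.86 ± 0.21 (adjusted p = 0.007). Under upper-quartile scaling Mgat4b was at -0.32 (adjusted p = 0.0293). With no composition factor Mgat4b was not called (-0.06, adjusted p = 0.654) and Mgat3 was at -0.43 (adjusted p = 0.0372). Of 5 tested sialidases and fucosidases 1 was lower, the fucosidase Fuca2 (-0.58 ± 0.17, adjusted p = 0.016). Fuca2 was not called with no composition factor (-0.15, adjusted p = 0.321), with only the D80 groups in the fit (0.0589), without wild-type D80 replicate 3 (0.0628), without transgenic D80 replicate 2 (0.0508) or 3 (0.0908), or without both wild-type D80 replicate 3 and transgenic D80 replicate 1 (0.0601). Neu3 and Fuca1 were not called (adjusted p = 0.18 and 0.26).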

How the data were processed

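Whole-number counts, 1 row per gene symbol and 1 column for each of 12 RNA-seq libraries of pylorus, were used as deposited by the authors, without normalization. Per the submitters' processing notes, the tools were edgeR 3.16.5, HTSeq 0.9.1 and STAR 2.5.3a, with mm10 as the build and no roles given. Libraries were made with a stranded mRNA kit, per the labels' protocols; which strand setting and annotation the counting used is not given in these sources, so reads of overlapping genes could not be told apart (31 members share exon sequence with a gene on the other strand and 5 on the same strand). A normalized table was not used here.

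In R 4.3.3, edgeR 4.0.16 kept 15369 genes by filterByExpr, scaled library sizes by trimmed mean of M-values (factors 0.805 to 1.30) and fitted 1 coefficient per group to all 12 libraries, with 8 residual degrees of freedom. All 74 members were tested. The script was tested on simulated counts. The contrasts were transgenic against wild-type at each age, D80 against D60 in each genotype, and the interaction. DESeq2 1.42.0, other scalings and filters, sex as a covariate and leaving out libraries were alternatives. Levels per kb and coordinates use GENCODE M21 exons on GRCm38, for 73 of 74 members. Members and lists were chosen with earlier results of these data known. Genes given with values were those called at D60 or in the interaction, up to 4 in each direction per role at D80, 16 fixed genes and up to 3 per context list. CPM at 3 counts is 0.109 to 0.149 by library on library totals without the scaling factors, unlike the levels given, and covers counting error only. B4galt1, B3galt5, St3gal4, St8sia4, St8sia6, Muc5b, Muc6 and Clca1 were named after their values were seen.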

Additional observations from a re-analysis of the deposited data

Results flagged for a closer look

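For 5 members the genotype difference itself differed between the ages in the test of the interaction (edgeR, D80 difference minus D60 difference, log2). The values were 3.67 for St8sia5 (adjusted p = 0.0119), 2.88 for Galnt9 (adjusted p = 0.0129), 1.56 for St6gal1 (adjusted p = 0.0235), 1.33 for Galnt18 (adjusted p = 0.0264) and -1.05 for Galntl6 (adjusted p = 0.0143). With sex type as a covariate the values were 4.44 for St8sia5 (adjusted p = 0.0431), 3.57 for Galnt9 (adjusted p = 0.069), 2.29 for St6gal1 (adjusted p = 0.0745), 2.10 for Galnt18 (adjusted p = 0.0562) and -1.22 for Galntl6 (adjusted p = 0.134). The covariate rests on transgenic D80 replicate 1, the male library of the only group with both sexes.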

How the results depend on the processing

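Among called differences of named genes, that of B4galt1 at D80 changed direction, to 0.0761 with no composition factor, and no other did under the alternatives run. The genes of the surrounding lists and the list counts by scaling were put through the alternatives after the data were seen. At D60, the count of members higher was 6 and became 1 with sex type as a covariate and 3 to 6 when a library was left out. At D80 the count higher was 18 and became 29 with no composition factor (16 to 22 leaving out a library), and the count lower was 14 and became 5 with no composition factor, 9 under upper-quartile scaling and 8 with only the groups compared (7 to 15 leaving out a library; 8 without transgenic D80 replicate 2 and 7 without replicate 3). No composition factor moved the median of all genes to 0.34 at D80. For transgenic D80 against D60 the count higher was 22 (14 to 26 leaving out a library). For wild-type D80 against D60 it was 0, with 2 by DESeq2 and 0 to 4 leaving out a library. For the interaction 5 members were called, with 9 by DESeq2, 1 with sex type as a covariate, 8 without wild-type D80 replicate 3 and transgenic D80 replicate 1 together, and 2 to 13 leaving out a library. Of these 4 were higher, with 1 with sex type as a covariate (1 to 6 leaving out a library), and 1 lower, with 0 with no composition factor, 3 by DESeq2, 0 with sex type as a covariate, 3 without those libraries together and 0 to 7 leaving out a library. The cause of these changes was not tested. The sex covariate rests on transgenic D80, the only group with both sexes, and so on its replicate 1. With the replicate number as a block the interaction gave 2 lower members, D80 gave 19 higher and 14 lower and D60 gave 6 higher. At D60 the block ended the call of B3gnt9 (adjusted p = 0.0634), so 1 of those 6 was another member, and it ended that of B4galnt2 in transgenic D80 against D60 (adjusted p = 0.0673). Whether the numbers pair the libraries was not settled. The 18 same-number pairs had a mean residual correlation of -0.0154 (-0.396 to 0.431), and 7 exceeded 0.1. Pairs with different numbers were not set beside them, so these values cannot decide it. Depth limits members near the level of 3 counts, such as St6galnac5 and Galnt14 in wild-type libraries.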
